A study of Mus musculus with 20 samples.

Results

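The genes described here encode the proteins of the cytosolic ribosome, measured in muscle RNA on 20 Affymetrix arrays. Members were all probe sets whose single platform symbol starts with Rpl or Rps and a digit, or is Rplp0, Rplp1, Rplp2 or Rpsa, with the Rps6k kinases and Rps19bp1 left out. This rule gave 81 of 10748 probe sets, for 43 genes: 34 probe sets of the large subunit, 38 of the small subunit, 2 of the P stalk (Rplp0 and Rplp2) and 7 of the paralogues Rpl3l, Rpl7l1, Rpl22l1 and Rps27l. The rule used names and no measured value. Another 90 probe sets carry a ribosomal protein symbol together with other symbols and were not members, so Rps6, Rpl5, Rpl31 and Rpl36, for example, have no values here.

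All 5 groups were female C57BL/6 mice aged 14 weeks, with 4 arrays each that the titles call biological replicates. SOD1 mice carried the human SOD1G93A transgene, a model of amyotrophic lateral sclerosis, and were at a symptomatic stage; NTg mice were non-transgenic. Gastrocnemius (calf) and triceps (fore limb) came from both genotypes. The crush group was gastrocnemius taken 2 weeks after forceps had been closed on the sciatic nerve for 30 s at 12 weeks of age; the labels name no genotype for it, and sham-operated mice were not analysed here. Nor do the labels name the promoter of the transgene. RNA of whole muscle was measured, so fewer cells of a type and less RNA per cell cannot be told apart.

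Each array gave a MAS5 signal per probe set on a log2 scale, where 1 unit is a 2-fold difference. Array medians lay between 6.61 and 6.76. All 8 muscle fibre markers were in the table, with summed linear signals from 17161 to 60241 per array. Crush replicate 4 stood apart: its mean correlation with the other crush arrays was 0.905, against 0.951 to 0.954 for those 3. It also carried the denervation marker Chrna1, a subunit of the muscle acetylcholine receptor, at 11.34, against 6.97 to 7.40 in crush replicates 1 to 3 and 6.20 to 6.81 in NTg gastrocnemius. The description field of NTg triceps replicate 4 names gastrocnemius, while its title, source and tissue fields say triceps. Results that rest on crush replicate 4 are given with and without it.

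A ribosome is built from a small subunit, which reads the mRNA, and a large subunit, which joins amino acids; each protein is present in about equal amounts in the finished particle. Most ribosomal protein mRNAs begin with a 5′ terminal oligopyrimidine (TOP) tract, through which mTOR and the RNA-binding protein LARP1 set their translation, so their mRNA level and their translation can part. In muscle, fibres add ribosomes during growth and regeneration. A few paralogues replace a common subunit in particular cells: Rpl3l takes the place of Rpl3 in skeletal muscle and heart, Rpl22l1 is a partner of Rpl22, and Rps27l, a p53 target, is a partner of Rps27.

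Transcript starts are shown because the TOP tract is the sequence these mRNAs are known for. They are 30-base windows from RefSeq on GRCm38.p6, made of the last 15 bases before the start and the first 15 bases of the transcript, with the longest run of C or T on the transcribed strand in capitals. Those of Rps10 and Rpl27 belong to the genes called in SOD1 gastrocnemius, and those of Rpl22l1 and its partner Rpl22 to the paralogue called after crush. Rpl3l is the striated muscle paralogue, Rps18 and Rpl35 followed the rest of the family most closely from array to array, and Rplp0 is a common reference gene.
Rps10: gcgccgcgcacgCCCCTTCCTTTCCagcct
Rpl27: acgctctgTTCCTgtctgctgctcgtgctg
Rpl22l1: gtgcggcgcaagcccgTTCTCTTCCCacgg
Rpl22: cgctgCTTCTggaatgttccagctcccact
Rpl3l: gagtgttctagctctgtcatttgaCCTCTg
Rps18: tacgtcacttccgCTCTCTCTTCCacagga
Rpl35: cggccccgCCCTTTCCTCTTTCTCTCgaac
Rplp0: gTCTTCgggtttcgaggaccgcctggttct
They lie at chr17:27635230-27635259 (minus strand) for Rps10, chr11:101442230-101442259 (plus) for Rpl27, chr3:28805493-28805522 (plus) for Rpl22l1 and chr4:152324421-152324450 (plus) for Rpl22. The others lie at chr17:24727811-24727840 (plus) for Rpl3l, chr17:33955651-33955680 (minus) for Rps18, chr2:39005117-39005146 (minus) for Rpl35 and chr5:115559452-115559481 (plus) for Rplp0.

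The run measured 13 bases in Rps10, 10 in Rpl22l1, 11 in Rps18 and 18 in Rpl35, and 5 in each of Rpl27, Rpl22, Rpl3l and Rplp0. Of the 43 member genes, 38 matched the RefSeq table, with 46 starts. A run of 8 or more pyrimidines stood in 18 of these starts (39.1%), against 12.0% of the 32851 starts in the whole table. Both called genes of SOD1 gastrocnemius therefore differ from each other in this feature. The run was counted anywhere in the window. In Rpl4, at the second of the Rpl19 starts and at the first of the Rps27l starts, it lies wholly before the transcript. A run in the window thus does not by itself show a TOP tract. Rpl22 and Rpl3l each have a second start, with a longest run of 4, that is not shown. The absence of a run says only that these letters are not in this window.

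Of the 81 probe sets, 76 (41 genes) passed the filter, which left out the 30% of probe sets with the lowest mean over all arrays. The 5 left out were dim: Rpl14 1422128_at (1.30 to 4.69 over the arrays), Rps20 1450417_a_at (-1.05 to 4.04), Rpl41 1454639_x_at (3.64 to 6.12), Rps24 1455195_at (3.52 to 5.23) and Rps27 1460699_at (4.03 to 6.56), so Rpl14 and Rps27 were not tested. The tested members were bright, with a mean of 10 or more in 62 of 76. They also varied little: the median SD within a group was 0.21 log2 units, against 0.24 for the 593 other probe sets at a mean of 10 or more. In 65 of the 76 the probe set ID carries a letter mark (a, s or x) for probes shared between transcripts. The letter a stands for transcripts of 1 gene, and s and x for those of different genes. These letters were counted together, so the mark does not by itself mean probes shared with another gene. Most ribosomal protein genes have near-identical pseudogenes, so signal from a related transcript cannot be set aside. Probe sets of 1 gene are not independent of each other, and 19 genes had more than 1.

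In SOD1 gastrocnemius against NTg gastrocnemius, the comparison of symptomatic with normal muscle, most ribosomal proteins lay slightly above NTg and 2 of 76 probe sets rose. The change was above 0 in 63 of 76, with a median of 0.15 log2 units, against -0.00 over all 7523 tested probe sets and -0.10 over the 593 other bright ones. It was above 0 in 57 of the 65 probe sets marked for shared probes and in 6 of the 11 without the mark, whose median was 0.14, and with 1 probe set a gene the median was 0.071. An adjusted p under 0.05 in limma (Benjamini-Hochberg over all tested probe sets) was the rule for a call. By it 2 members were higher and 0 lower, where 12% of all tested probe sets were called, 5.97% higher and 6.02% lower, so the share of members called was below the background. At an unadjusted p under 0.05 there were 12 members higher and 0 lower, against 14.6% and 14.8% of all probe sets. The 4 SOD1 arrays lay wholly above the 4 NTg arrays in 18 members and wholly below in 0, against 12.7% and 13.3% of all tested.

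Rps10, a small subunit protein near the mRNA entry and the site where ribosomes collide, was read by 5 probe sets. On 1456497_x_at its log2 signals were 10.61, 10.62, 10.65 and 10.60 in NTg gastrocnemius and 10.87, 11.02, 11.13 and 11.04 in SOD1 gastrocnemius. The groups did not overlap, and the NTg arrays lay close together. The change was 0.40 (SE 0.12, 95% interval 0.15 to 0.65, 1.32-fold, limma adjusted p = 0.035), a rise. The other 4 probe sets had changes of 0.13, 0.19, 0.39 and 0.65, none of them called. The 0.65 was on 1439374_x_at, which did not track the family from array to array, as described below for triceps.

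Rpl27, a large subunit protein often used as a reference gene, was read by 3 probe sets. On 1448217_a_at its signals were 8.81, 8.70, 8.82 and 8.76 in NTg and 9.11, 9.23, 9.39 and 9.40 in SOD1 gastrocnemius. Every SOD1 array was above every NTg array. The change was 0.51 (SE 0.16, 95% interval 0.17 to 0.85, 1.42-fold, limma adjusted p = 0.046), a rise. The brightest Rpl27 probe set, 1416099_at, had a change of 0.26 (adjusted p = 0.26) and the third, 1453096_x_at, of 0.33 (adjusted p = 0.15).

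Neither call was firm. Both were lost when any of the 4 NTg arrays or SOD1 replicates 2 to 4 was left out, which leaves 3 arrays in a group, with adjusted p from 0.070 to 0.10 for Rps10 and 0.082 to 0.14 for Rpl27; without SOD1 replicate 1 both stayed and 5 members were called. The Rps10 call was also lost on subtraction of the 75th percentile (adjusted p = 0.054), and that of Rpl27 with no filter (adjusted p = 0.053) or no variance trend (adjusted p = 0.051). The count of members called higher also moved with the variance model: it was 10 (13.2% of members) from the compared arrays alone, where 11.8% of all tested were called higher, and 27 (35.5%) with array weights, where 16.5% were called higher and 16.9% lower.

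Over all large subunit members, Rpl27 included, 29 of 32 tested had a change above 0 and the median was 0.16. Rpl13a, part of the GAIT translational silencing complex, had the largest single change on its dim probe set 1433928_a_at, with 5.39, 5.60, 5.35 and 5.37 in NTg and 5.73, 5.81, 7.04 and 6.72 in SOD1. SOD1 replicates 3 and 4 held most of that difference (0.90, SE 0.29, limma adjusted p = 0.050, just outside the threshold). The bright Rpl13a probe sets had changes of 0.24, 0.34 and 0.35. Rpl19 1416219_at, a core large subunit protein, had a change of 0.30 (adjusted p = 0.21), and the 5 probe sets of Rpl35, which sits at the exit of the peptide tunnel, ran from 0.10 to 0.31.

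Over all small subunit members, Rps10 included, 30 of 35 had a change above 0 and the median was 0.19. Rpsa, also known as the laminin receptor, had a change of 0.34 (adjusted p = 0.12), and Rps24 1428530_x_at one of 0.30 (adjusted p = 0.099) with groups that did not overlap. The 3 probe sets of Rps18, another reference gene, had 0.14, 0.28 and 0.32. Rps4x, by contrast, had 0.01 (95% interval -0.25 to 0.27). Of the 19 genes with several tested probe sets, 13 had all of them above 0, 0 had all below, and 6 were split in sign (Rpl7, Rpl7l1, Rps7, Rps14, Rps15 and Rps27l).

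Rplp0, the stalk base that carries the other stalk proteins and recruits elongation factors, was the same in both groups within its error. Its signals were 11.96, 11.80, 11.86 and 11.89 in NTg and 12.02, 11.84, 11.83 and 11.81 in SOD1 gastrocnemius. The groups overlapped throughout, with a change of -0.00 (95% interval -0.27 to 0.26). Its partner Rplp2 had 0.15 (adjusted p = 0.36).

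**Figure D1:**
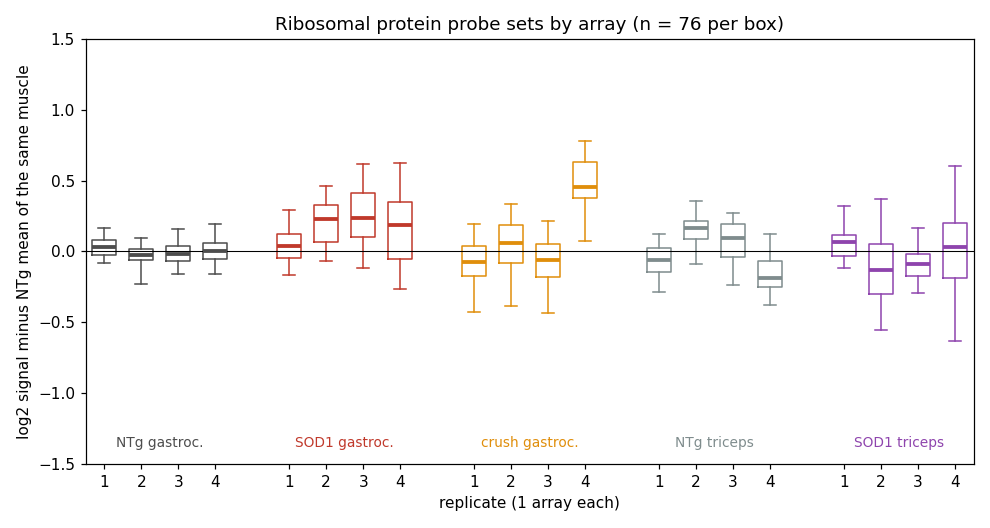
Log2 signal minus the NTg mean of the same muscle for the 76 tested ribosomal protein probe sets on each array; box, quartiles and median; whiskers, the 5th and 95th percentiles. SOD1 gastrocnemius replicates 2 to 4 have medians of 0.19 to 0.23 and replicate 1 of 0.04, and crush replicate 4 has 0.46 where the other crush arrays lie between -0.07 and 0.06.

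The array medians of these deviations show the same unevenness. SOD1 gastrocnemius replicates 1 to 4 had 0.04, 0.23, 0.23 and 0.19, against -0.02 to 0.03 in NTg gastrocnemius. Replicate 1, the lowest, also had the lowest Chrna1 of its group, 8.57 against 10.23 to 10.85. The other bright probe sets had -0.31 to 0.01 on the same 4 arrays.

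**Figure D2:**
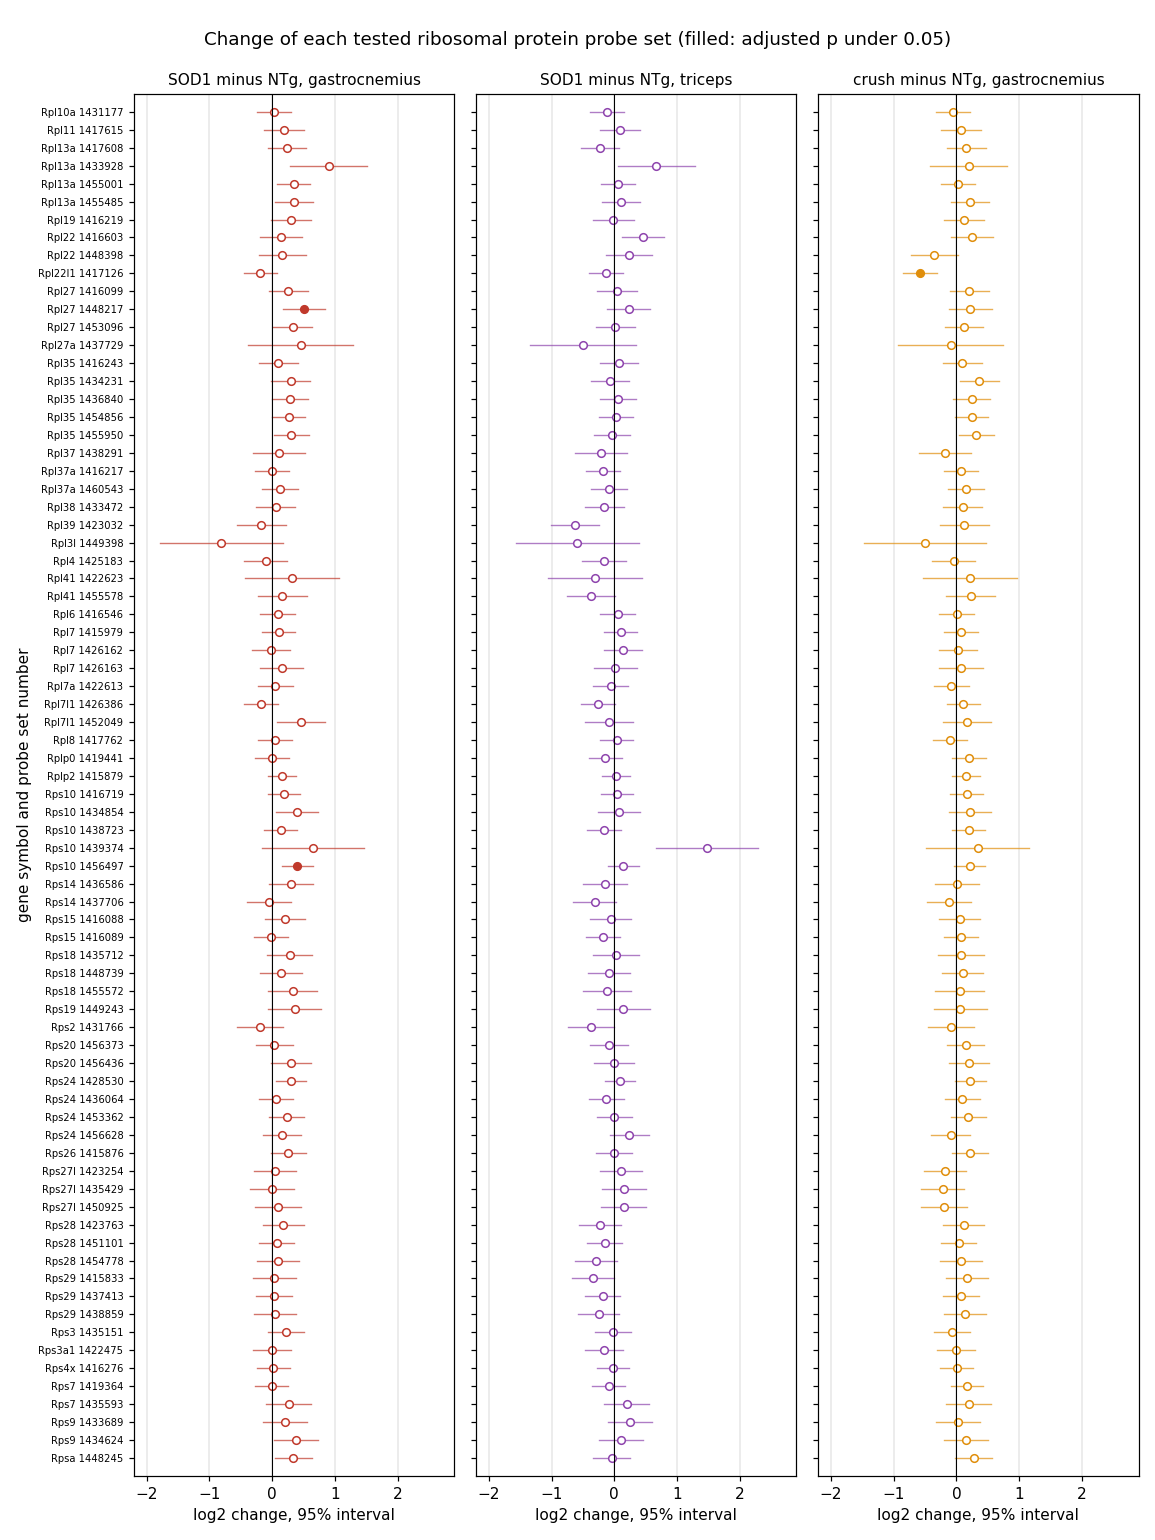
Log2 change of each tested ribosomal protein probe set (rows) with its 95% interval in 3 comparisons; filled points have a limma adjusted p under 0.05. The filled points are Rpl27 1448217 and Rps10 1456497 in SOD1 gastrocnemius and Rpl22l1 after crush, and most other intervals cross 0.

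Rpl3l showed the largest negative value of the family in SOD1 muscle. Its signals were 10.92, 10.87, 10.81 and 10.79 in NTg gastrocnemius and 10.81, 10.06, 9.91 and 9.36 in SOD1 gastrocnemius. The highest SOD1 value was within the NTg range and the other 3 were below it. The change was -0.81 (SE 0.47, 95% interval -1.78 to 0.16, limma adjusted p = 0.26) and was not called. The shared spread of the fit includes crush replicate 4, which had 8.18 where the other crush arrays had 10.90, 11.19 and 11.11. Without that array the same difference of -0.81 had an SE of 0.25 and was called (limma adjusted p = 0.031), a fall. In that fit 5 members were called higher and 1 lower, where 8.59% of all tested were called higher and 9.24% lower (17.8% in all). No single-symbol probe set of Rpl3 was among the members.

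Rpl3l and Chrna1 can be set side by side on the affected arrays. In SOD1 gastrocnemius the array with the highest Chrna1 (replicate 4, 10.85) had the lowest Rpl3l, and replicate 1, with the lowest Chrna1 (8.57), the highest Rpl3l. SOD1 triceps replicates 1 to 4 had Rpl3l at 10.89, 10.68, 10.40 and 9.60 beside Chrna1 at 7.59, 8.86, 8.62 and 11.03. In the crush group replicate 4 was again lowest in Rpl3l and highest in Chrna1, but the highest Rpl3l (replicate 2) did not fall on the array with the lowest Chrna1 (replicate 1). This is a description of 12 arrays, chosen after the values were seen. The labels do not say whether same-numbered gastrocnemius and triceps arrays came from the same mouse. In deviations from the group means, the SOD1 muscles correlated at 0.57 for replicate 1 and 0.62 for replicate 4. For replicates 2 and 3 the values were -0.10 and -0.04. The NTg muscles correlated at 0.24, 0.13, 0.21 and -0.09 for replicates 1 to 4. The arrays of both SOD1 muscles may therefore not be separate observations, and the same holds for the NTg muscles.

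**Figure D3:**
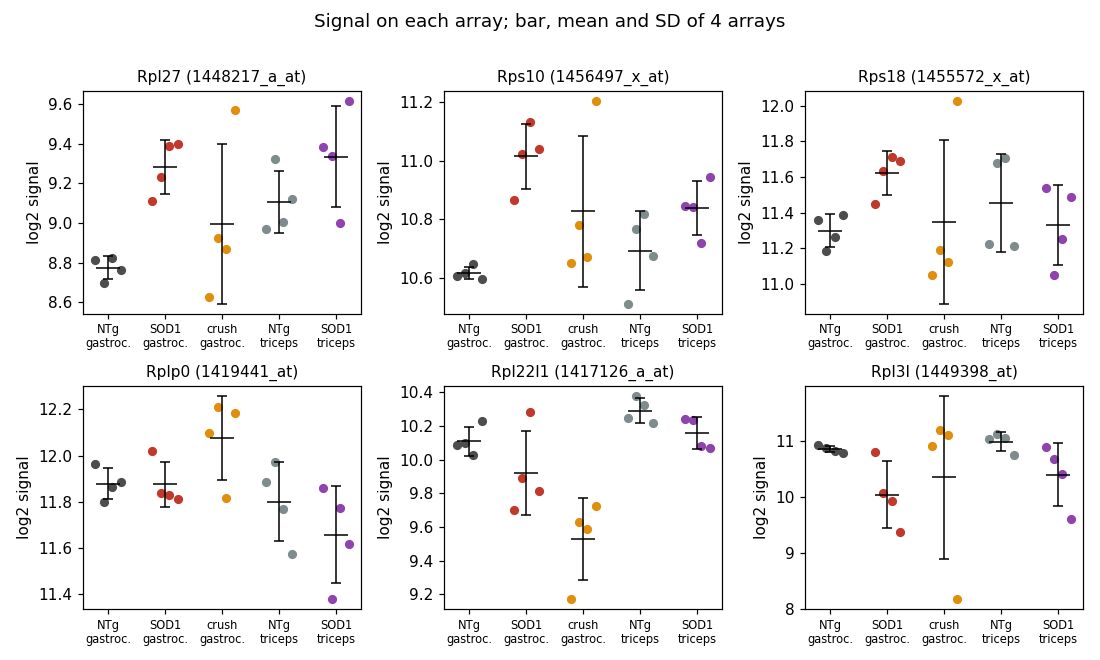
Log2 signal of 6 ribosomal protein probe sets on each array (points), with the mean and SD of the 4 arrays in each group. Rpl3l is at 8.18 on crush replicate 4 and spreads down to 9.36 in SOD1 gastrocnemius, while Rpl27 and Rps10 in SOD1 gastrocnemius lie wholly above NTg gastrocnemius.

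The other paralogues were mixed in SOD1 gastrocnemius. Rpl7l1, a nucleolar relative of Rpl7, had 0.45 on 1452049_at (adjusted p = 0.11) and -0.18 on 1426386_at, both dim. Rpl22l1 had -0.19 (adjusted p = 0.35) beside 0.14 and 0.16 for Rpl22, and the 3 probe sets of Rps27l lay between -0.00 and 0.09.

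In SOD1 triceps against NTg triceps no member was called in limma, and the sign of the family as a whole depended on the scaling. The change was above 0 in 32 of 76 members, with a median of -0.03, and 0 were called, where 0.239% of all tested probe sets were. At an unadjusted p under 0.05 there were 3 higher and 3 lower, against 9.62% and 5.6% of all, and groups did not overlap in 0 members, against 4.69% of all tested higher and 2.3% lower. Under quantile normalization the median was 0.19 and 64 of 76 were above 0; under subtraction of the 75th percentile it was -0.09. In the deposited values the other bright probe sets had a median of -0.24 in triceps, and -0.04 under quantile normalization, so the members' median was above theirs under both. The 8 muscle fibre markers, all bright, had a median change of -0.58 in triceps and 0 of 8 called; their summed signals ran from 17161 to 35178 in SOD1 and 25540 to 54760 in NTg triceps. The part of the fibre content in the members' values was not tested.

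**Figure D4:**
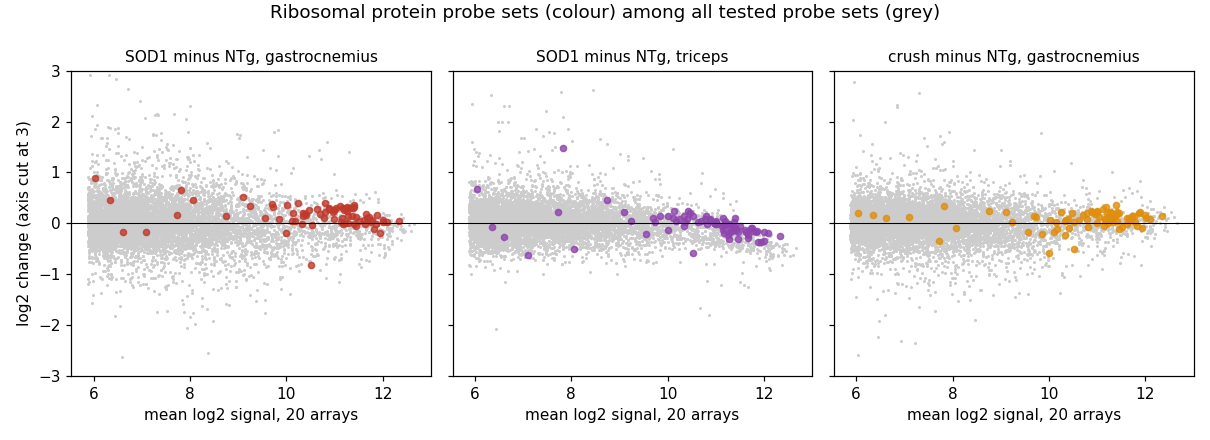
Log2 change against the mean log2 signal over 20 arrays for all 7523 tested probe sets (grey) and the 76 tested ribosomal proteins (colour), with the change axis shown from -3 to 3. In triceps the bright end of the grey cloud lies below 0 (median -0.24 at a mean of 10 or more), and the ribosomal proteins lie in its upper part.

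Single members in triceps differed in both directions without passing the test. Rpl39, a small protein lining the peptide tunnel, had signals of 7.10, 6.88, 7.69 and 7.04 in NTg and 6.14, 6.69, 6.90 and 6.48 in SOD1 triceps. Only SOD1 replicate 3 reached into the NTg range, and the change was -0.63 (SE 0.19, 95% interval -1.02 to -0.24, limma adjusted p = 0.16). Rpl22 1416603_at had 0.45 (limma adjusted p = 0.22). SOD1 replicates 1, 2 and 4 had 8.93, 9.42 and 9.37 and replicate 3 had 8.53, against 8.48 to 8.81 in NTg. Rpl3l had -0.59 (adjusted p = 0.54).

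One Rps10 probe set behaved unlike the others. On 1439374_x_at the signals were 7.33, 7.55, 7.33 and 8.35 in NTg triceps and 7.98, 9.90, 8.26 and 10.32 in SOD1 triceps, a change of 1.47 (SE 0.39, 95% interval 0.66 to 2.29, limma adjusted p = 0.11). SOD1 replicates 2 and 4 stood above every other array of both groups. The other 4 Rps10 probe sets had -0.16, 0.04, 0.08 and 0.14 in the same comparison. This probe set carries the mark for shared probes and did not track the family from array to array (r = -0.09 with the median of the other members), so what it reads in triceps is uncertain.

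The SOD1 effect in gastrocnemius minus that in triceps tests whether the SOD1 effect differs between the muscles. It was above 0 in 65 of 76 members with a median of 0.22, against -0.02 over all tested and 0.12 over the other bright probe sets. In limma 0 members were called and 0% of all tested; at an unadjusted p under 0.05 it was 1 member higher (Rpl13a 1417608_a_at, 0.46, adjusted p = 0.50) and 0 lower, against 3.5% and 5.94% of all. Under quantile normalization the median was 0.02 with 39 of 76 above 0. A difference in SOD1 effect between the muscles was not detectable for any member with 4 arrays a group, and its family median moved with the scaling.

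After nerve crush, against the same NTg gastrocnemius arrays as above, 1 paralogue fell and no member rose. The change was above 0 in 59 of 76 members with a median of 0.10, against 0.02 over all tested. In limma 0 members were called higher and 1 lower, where 4.13% of all tested were called, 1.08% higher and 3.06% lower. At an unadjusted p under 0.05 there were 2 higher and 1 lower, against 9.24% and 11.4% of all tested, and groups did not overlap in 4 members above and 1 below, against 6.94% and 9.44% of all.

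Rpl22l1 was the member that fell. Its signals were 10.09, 10.10, 10.03 and 10.23 in NTg gastrocnemius and 9.17, 9.63, 9.59 and 9.72 after crush. All crush arrays, replicate 4 included, lay below all NTg arrays. The change was -0.58 (SE 0.13, 95% interval -0.85 to -0.31, limma adjusted p = 0.016); the call was lost without NTg replicate 4 (adjusted p = 0.066) or crush replicate 1 (adjusted p = 0.053). SOD1 gastrocnemius, at 9.70, 9.89, 10.28 and 9.81, overlapped both groups, with SOD1 minus crush at 0.39 (adjusted p = 0.23). Its partner Rpl22 had 0.25 on 1416603_at and -0.35 on 1448398_s_at after crush (adjusted p = 0.40 and 0.27), so the probe sets of Rpl22 did not give 1 direction.

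The positive median of the crush group rested on crush replicate 4. On that array 73 of 76 members lay above the NTg mean, by a median of 0.46, while crush replicates 1 to 3 had medians of -0.07, 0.06 and -0.06. Rps18 1455572_x_at shows it: 11.05, 11.19 and 11.12 in crush replicates 1 to 3, 12.03 in replicate 4, and 11.19 to 11.39 in NTg. Without replicate 4 the family median was -0.01, with 37 of 76 above 0. The same array had Myog, a myogenic transcription factor, at 10.14 against 6.31 to 7.09 in the other crush arrays. The 5 genes of the satellite cell and myoblast list, Myog among them, summed to 8500 against 3711 to 4295. Whole-muscle RNA does not show whether myoblasts or muscle fibres carried these transcripts. The summed signal of 2 lymphocyte and granulocyte markers was 427 against 50.1 to 80.3. Neither marker passed the filter on mean signal, so they were not tested. The part of any of these cells in the members' values was not tested.

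Without replicate 4, 3 members were called lower after crush and 0 higher in limma, where 5.25% of all tested were called (2.27% higher, 2.98% lower). They were Rpl22l1 at -0.65 (adjusted p = 0.010) and Rps27l on 1423254_x_at at -0.40 (adjusted p = 0.038) and on 1435429_x_at at -0.45 (adjusted p = 0.029). On 1435429_x_at, crush replicates 1 to 3 had 9.75, 9.86 and 10.06 and NTg 10.28 to 10.39, while replicate 4 had 10.79. With all 4 arrays the 3 Rps27l probe sets had -0.18, -0.20 and -0.22, and 0 of them were called. Without replicate 4, both genes called lower were thus paralogues. With array weights, which count an odd array less, 5 members were called lower and 0 higher, where 9.15% and 7.4% of all tested were: Rpl22l1, the 3 Rps27l probe sets and Rpl22 1448398_s_at, a standard subunit (adjusted p = 0.017).

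SOD1 against crush gastrocnemius shares its arrays with both comparisons above. It gave 0 calls among members and 0% of all tested in limma, with a median of 0.06 and 54 of 76 above 0. The median was 0.13 under quantile normalization (68 of 76 above 0) and 0.04 on subtraction of the 75th percentile (49 of 76), and it was -0.09 over the 11 unmarked members, with 5 above 0. At an unadjusted p under 0.05 there were 4 members higher and 1 lower, against 6.78% and 5.72% of all, and groups did not overlap in 0 above and 1 below, against 2.87% and 2.61%. Without crush replicate 4 the median was 0.20 with 67 of 76 above 0, and 9 members (11.8%) were higher and 1 (1.32%) lower, where 3.74% and 4.29% of all tested were. The 9 were Rpl22 1448398_s_at (0.65), Rpl22l1 (0.46), Rpl27 1448217_a_at (0.48), Rps3 (0.43), Rps18 on 1435712_a_at (0.44) and 1455572_x_at (0.50), and the 3 probe sets of Rps27l (0.44, 0.45 and 0.50), with limma adjusted p from 0.017 to 0.038. The fall was Rpl3l at -1.03 (SE 0.27, adjusted p = 0.024). With all 4 crush arrays Rpl3l had -0.31 and was not called. The array left out is the one that stood apart in Rpl3l itself, at 8.18. With array weights 17 members (22.4%) were higher and 2 (2.63%) lower, where 8.44% and 8.6% of all tested were. Rps3, a small subunit protein at the mRNA entry, also acts in DNA repair.

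Normal gastrocnemius and triceps gave 0 calls among members in limma, where 1.71% of all tested probe sets were called, 1.52% higher and 0.186% lower. The difference, gastrocnemius minus triceps, was above 0 in 22 of 76, with a median of -0.06 against -0.03 over all tested; at an unadjusted p under 0.05 there were 0 higher and 3 lower, against 7.7% and 6.62% of all, and groups did not overlap in 1 above and 6 below, against 4.61% and 5.65%. The 3 lower were Rps9 1434624_x_at (-0.45, adjusted p = 0.20), Rpl13a 1433928_a_at (-0.64, adjusted p = 0.32) and Rpl27 1453096_x_at (-0.32, adjusted p = 0.33). Rps9 has a second probe set, at 0.07.

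For 3 of the members used as reference genes, the changes against NTg in SOD1 gastrocnemius, SOD1 triceps and crush can be set side by side. Rplp0 had -0.00, -0.14 and 0.20, Rpl19 had 0.30, -0.01 and 0.12, and Rps18 on its brightest probe set, 1455572_x_at, had 0.32, -0.12 and 0.05. None of these probe sets was called, unlike Rpl27 1448217_a_at in SOD1 gastrocnemius, described above. The upper ends of their 95% intervals reached 0.46 for Rplp0, after crush, and 0.71 for Rps18, in SOD1 gastrocnemius.

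Members moved together within groups. After each group mean was taken off, probe sets of different ribosomal protein genes correlated over the 20 arrays with a median r of 0.53 (mean 0.44), those of the same gene with 0.75. The mean was 0.00 over all tested probe sets and 0.20 over the other bright ones. Without crush replicate 4 the mean among members of different genes was 0.28 and that of other bright probe sets also 0.28. Rpl35 1454856_x_at (r = 0.96 with the median of the other members), Rps18 1455572_x_at (0.96) and Rps26 (0.95) were closest to the family and stayed at 0.87 to 0.90 without it. Rpl3l went the other way, at -0.71, and at -0.10 without it. These points share arrays and, for some marked probe sets, may share probes.

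Genes around the ribosome are read against the share of all tested probe sets called, which was 12% in SOD1 gastrocnemius, 0.239% in SOD1 triceps and 4.13% after crush. Fau, whose product holds the small subunit protein Rps30, was the 1 of 4 other ribosome genes in the table and had 0.40 in SOD1 gastrocnemius (adjusted p = 0.061). Of 20 tested TOP mRNAs of elongation, initiation and related factors, 2 rose in SOD1 gastrocnemius, 1 in SOD1 triceps and 1 after crush, and 0 fell; their medians were -0.07, 0.04 and -0.04. The rise was in Eef1a1, the elongation factor of most tissues, at 1.40 (SE 0.27, adjusted p = 0.0063) in SOD1 gastrocnemius and 1.01 after crush (adjusted p = 0.043), and in the histone chaperone Nap1l1 at 0.60 in SOD1 gastrocnemius and 0.94 in triceps. Eef1a2, the form that replaces Eef1a1 in mature muscle, had -0.40, -0.41 and -0.08 and was not called.

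Ribosome production and its control were measured with 2 further lists. Of 33 tested genes of rRNA synthesis and ribosome assembly, 0 were called in limma in SOD1 gastrocnemius, where 12% of all tested were, and likewise 0 in SOD1 triceps and after crush, with medians of 0.15, 0.26 and 0.09. Of 10 tested genes that signal to ribosomal protein synthesis, Mtor, the kinase that controls TOP mRNAs, rose by 0.84 in SOD1 gastrocnemius (adjusted p = 0.048). Eif4ebp2, an inhibitor of cap-dependent initiation, fell by 0.61 there (adjusted p = 0.037) and by 0.81 after crush (adjusted p = 0.018).

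The proteins of the mitochondrial ribosome, a separate particle that makes a few respiratory chain proteins, lay on both sides of 0. Of 73 tested, 30 were above 0 in SOD1 gastrocnemius with a median of -0.04. Calls were 1 higher (Mrps35, 0.58) and 1 lower (Mrps21, -0.47), where 449 of all 7523 tested probe sets were called higher and 453 lower. After crush 51 were above 0 with a median of 0.14. Mrpl41 (0.64) and Mrps35 (0.61) rose, where 81 of all 7523 were called higher. In triceps 26 were above 0, the median was -0.06 and 0 were called.

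The marker lists of other cells differed from each other in SOD1 gastrocnemius. No call was made there among 8 tested fibroblast, 6 endothelial and 5 smooth muscle and pericyte markers. The same held for 3 Schwann and nerve and 2 adipocyte markers. In SOD1 gastrocnemius 449 of all 7523 tested probe sets were called higher, and 7 of 9 tested macrophage markers rose. The summed linear signal of the 11 in the table was 1551 to 2349 in SOD1 against 836 to 1065 in NTg gastrocnemius. It was 1080 to 2118 in SOD1 and 1090 to 1711 in NTg triceps, with 0 called, and 941 to 1456 after crush, with 0 called. Of 4 tested genes listed as satellite cell and myoblast markers, 3 rose in SOD1 gastrocnemius and 1 after crush. They were Myod1 (2.13), Myog (3.24) and Myf6 (1.30) in SOD1 gastrocnemius, and Myf6 (1.14) after crush. The sums of this list were 4766 to 5827 in SOD1 gastrocnemius against 3195 to 3686 in NTg. Whole-muscle RNA does not show whether satellite cells or muscle fibres carried these transcripts. After crush the myelin gene Mbp, 1 of 3 tested Schwann and nerve markers, fell by 2.35. The part of cell content in the ribosomal protein values was not tested.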

How the data were processed

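The members and gene lists were chosen with earlier results of these data known. Per the labels' protocols, biotinylated cRNA was made from 4 ug of total RNA. The deposited log2 values are MAS5 signals, per the submitters' processing notes; their scaling and any filter are not stated there, and they were used as they are. MAS5 weighs in mismatch probes, so dim values are noisy. The platform annotation gave symbols (9874 probe sets with 1 symbol, 387 with several, 487 with none). Probe sets in the lowest 30% by mean were left out (7523 kept). A model of 5 group means was fitted to 20 arrays with limma 3.58.1 in R 4.3.3 (eBayes with trend, 15 residual degrees of freedom), with Benjamini-Hochberg adjustment in each of 6 comparisons. The fit was tested on simulated data. Intervals are 95% intervals of the moderated statistic; 4 arrays a group limit the precision.

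Named probe sets were the called members, or the 3 with the smallest p where fewer than 3 were called, the paralogues with their partners, the common reference genes, and at most 4 called genes of each list; any other was picked out with its values known. The labels link no replicate number to a mouse, and in no comparison did all 4 same-numbered pairs of arrays correlate above 0.1 in their deviations from the group means, the threshold set for pairing, so numbers were not taken as pairs. Figures were drawn with matplotlib 3.10.9.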

Additional observations from a re-analysis of the deposited data

Results flagged for a closer look

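In 165 groups of 4 arrays, over the 32 probe sets of named ribosomal protein genes and the family level, 17 held an array whose gap to its nearest neighbour was above Dixon's critical value for 4 arrays; chance alone gives about 1 in 20 groups. The groups are not independent, since probe sets of the same gene, and members that moved together, share arrays. Of the 17, 7 were crush replicate 4. It was low in Rpl3l (8.18) and high in Rpl7 on 1415979_x_at (11.65) and 1426162_a_at (11.21), Rps27l 1423254_x_at (10.60), Rps18 on 1435712_a_at (11.31) and 1455572_x_at (12.03) and Rpl35 1455950_x_at (11.73).

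The other arrays that stood apart did so in single probe sets. In NTg gastrocnemius replicate 2 was high in Rpl13a 1433928_a_at (5.60) and Rpl7l1 1452049_at (6.47), and replicate 3 was low in Rpl13a 1455001_x_at (8.88). In SOD1 gastrocnemius replicate 1 was high in Rplp0 (12.02) and low in Rps18 1435712_a_at (10.56), and replicate 3 was high in Rps27l 1435429_x_at (10.54). In triceps, NTg replicate 4 was high in Rpl13a 1433928_a_at (6.48). Among SOD1 triceps arrays, replicate 1 was high in Rps4x (11.24), replicate 2 low in Rpl13a 1417608_a_at (10.79) and replicate 3 low in Rpl7 1426162_a_at (10.36).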

How the results depend on the processing

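With 4 arrays a group, 36 of 76 members in SOD1 gastrocnemius had an interval within 0.5 of 0, so small changes could be missed. The family median of SOD1 triceps, close to 0, changed sign with the scaling. Members called higher in SOD1 gastrocnemius numbered 1 with no filter, 10 from the compared arrays alone, 27 with array weights, and 0 with unmarked probe sets or with 1 probe set a gene, where the median was 0.071; those called lower numbered 1 from the compared arrays and 1 with array weights. Called lower after crush were 5 with array weights and 0 with unmarked probe sets; SOD1 against crush gave 17 higher and 2 lower with array weights. Under quantile normalization the median was 0.19 in triceps and 0.022 for the difference in SOD1 effect between the muscles. Array medians under it were 0.055, 0.015 and -0.071 in NTg gastrocnemius replicates 1 to 3, 0.36 in SOD1 gastrocnemius replicate 4, 0.026 in NTg triceps replicate 4, and 0.15, 0.039 and 0.44 in SOD1 triceps replicates 2 to 4; the last was -0.079 under the 75th percentile. The causes were not tested.

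Leaving out 1 array at a time, medians ran from 0.13 to 0.20 in SOD1 gastrocnemius (0 to 5 called higher, 0 to 1 lower). In triceps they ran from -0.10 to 0.03 (0 to 1 higher, 0 lower), and after crush from -0.01 to 0.17 (0 higher, 0 to 3 lower). For SOD1 against crush the range was -0.01 to 0.20 (0 to 9 higher, 0 to 1 lower). Between NTg muscles it was -0.12 to -0.00, and for the difference in SOD1 effect 0.16 to 0.26 (0 called in both). With the replicate number as a block, 3 members were called higher in SOD1 gastrocnemius in place of 2, the third being Rpl13a 1433928_a_at (adjusted p = 0.016), and 1310 of all probe sets in place of 902. No other member call changed with this replicate block; over all probe sets the calls were 104 in place of 18 in triceps and 494 in place of 311 after crush. Same-numbered arrays correlated from -0.17 to 0.03 between SOD1 and NTg gastrocnemius, 0.04 to 0.16 between SOD1 and NTg triceps, -0.13 to 0.08 between crush and NTg, 0.05 to 0.45 between SOD1 gastrocnemius and crush, -0.09 to 0.24 between the NTg muscles and -0.10 to 0.62 between the SOD1 muscles.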
